A study of Mus musculus with 10 samples.

Results

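The guanylate-binding proteins (Gbp) were examined in spleen cells of BXD2 mice through 8 members of the family: Gbp2, Gbp3, Gbp4, Gbp5, Gbp6, Gbp7, Gbp8 and Gbp9. These are 8 of the 31053 genes with a row in the deposited matrices. The members were chosen on earlier results from these same libraries, in which Gbp8 and Gbp9 had stood apart between the genotypes in T cells. The genotype difference is therefore given below as a description. Calls of members in that contrast are printed beside the background of all genes and are no test of the members. Differences between cell classes and between antibody isotypes were tested. A further pair of family genes with rows, Gbp2b (931 UMIs) and Gbp10 (50 UMIs), were not among the members.

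BXD2 is a recombinant inbred mouse strain that spontaneously forms germinal centres (GCs, the sites where B cells mutate and switch their antibodies) and makes autoantibodies. Cells from the spleen, labelled as B and T cells, were compared between 3 BXD2-p19-/- mice, of which p19-/- 1 and 2 were female and p19-/- 3 was male, and 2 female BXD2-WT mice. p19 is the subunit of the cytokine IL-23 encoded by Il23a. Each mouse gave 1 single-cell RNA library and 1 B cell receptor library made with a droplet kit that reads the 5' end of transcripts. The ages of the mice, the way the p19 allele was brought onto the strain and any sort of the cells are not given in the sources used here.

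Guanylate-binding proteins are large GTPases that cells make in response to interferons, above all interferon gamma, through transcription factors such as IRF1. They assemble on the vacuoles and surfaces of intracellular microbes and help to open them, and they promote the activation of inflammasomes. In mice the genes lie in 2 clusters. In the GRCm38.p6 annotation of RefSeq, the same build as mm10, the chromosome 3 cluster ran from Gbp5 (chr3:142496934-142522344) through Gbp7 (chr3:142530336-142550151) and Gbp3 (chr3:142560016-142573213) to Gbp2 (chr3:142620663-142638008). The chromosome 5 cluster began with the adjacent genes Gbp8 (chr5:105012513-105053609) and Gbp9 (chr5:105076464-105110357), followed by Gbp4 (chr5:105115767-105139586) and Gbp6 (chr5:105270702-105295871). Members of a cluster are close copies of each other, and how reads shared between copies were counted is not given in the sources used here, so a level of 1 member may hold reads of another. This applies to the neighbours Gbp8 and Gbp9, where the part of shared reads in the values below was not tested, and to Gbp6 beside its neighbour Gbp10.

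Promoter windows from RefSeq (GRCm38.p6), 250 bases before to 50 after a transcript's start, were at hand for 4 of the 8 members: Gbp2, Gbp3, Gbp5 and Gbp7. They are shown because these chromosome 3 genes were all higher in T-like than in B-like cells and lower in GC B-like than in mature non-GC B-like cells, in CPM. This was not particular to chromosome 3, since Gbp4 and Gbp9 were called in the same directions. Capitals mark matches, on either strand, to an interferon-stimulated response element of the form GAAANNGAAA and to a gamma-activated site of the form TTCNNNGAA. All windows are on the plus strand, and each ran 5' to 3'.
Gbp5, chr3:142496684-142496983: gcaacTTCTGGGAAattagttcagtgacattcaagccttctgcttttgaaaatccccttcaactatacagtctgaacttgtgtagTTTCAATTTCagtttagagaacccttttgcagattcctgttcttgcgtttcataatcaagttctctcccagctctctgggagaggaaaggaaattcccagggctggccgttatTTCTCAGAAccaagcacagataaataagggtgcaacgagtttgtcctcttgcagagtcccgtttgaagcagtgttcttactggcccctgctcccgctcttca
Gbp7, chr3:142530086-142530385: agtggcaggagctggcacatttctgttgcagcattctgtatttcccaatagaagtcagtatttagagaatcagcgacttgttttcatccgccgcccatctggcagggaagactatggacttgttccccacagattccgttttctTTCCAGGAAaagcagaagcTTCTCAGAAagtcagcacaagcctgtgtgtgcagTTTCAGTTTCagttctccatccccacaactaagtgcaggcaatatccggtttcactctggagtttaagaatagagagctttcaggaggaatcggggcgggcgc
Gbp3, chr3:142559794-142560093: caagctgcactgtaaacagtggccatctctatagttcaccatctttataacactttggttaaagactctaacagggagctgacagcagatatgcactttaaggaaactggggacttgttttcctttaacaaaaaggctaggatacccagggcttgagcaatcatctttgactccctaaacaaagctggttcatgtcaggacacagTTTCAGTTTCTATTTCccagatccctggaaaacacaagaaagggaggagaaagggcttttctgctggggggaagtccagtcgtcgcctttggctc
Gbp2, chr3:142620413-142620712: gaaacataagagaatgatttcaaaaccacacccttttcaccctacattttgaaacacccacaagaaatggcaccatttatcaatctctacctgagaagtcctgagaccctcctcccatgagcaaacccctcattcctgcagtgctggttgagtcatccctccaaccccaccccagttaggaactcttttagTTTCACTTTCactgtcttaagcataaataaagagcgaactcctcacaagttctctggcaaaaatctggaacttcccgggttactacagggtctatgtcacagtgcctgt
Each of these 4 windows held at least 1 match to the response element, read here on the opposite strand. Counted from the annotated start, the matches began at base -165 in Gbp5, -53 in Gbp7, -59 in Gbp2, and -45 and -39, overlapping, in Gbp3. The gamma-activated form matched in Gbp5 at -245 and -52 and in Gbp7 at -106 and -87. Among 32544 promoter windows of the same length, 3.45% held the first form, 8.33% the second and 0.455% both. A match describes letters only. Gbp3 has another annotated start, and neither form was found in its window. Gbp4, Gbp6, Gbp8 and Gbp9 are named only.

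The 5 RNA libraries held 11355 barcodes and 69958493 UMIs (unique molecular identifiers, each standing for 1 captured transcript), with 7712457 to 18093053 UMIs per library. Of these, 9170 cells were kept, at medians of 3883 to 5231 UMIs per mouse, and 68 barcode sequences occurred in more than 1 library. The cells fell into 21 clusters, named from marker genes as "-like" classes, with the Gbp genes and the interferon lists kept out of the clustering. T-like cells numbered 3834 and joined T follicular helper (Tfh)-like (1918), regulatory T (Treg)-like (1025), other CD4 T-like (609) and CD8 T-like cells (282). B-like cells numbered 3779, of which 3168 were GC B-like and 611 mature B-like cells outside the GC class (mature non-GC B-like). Myeloid-like cells numbered 676, of which 568 were macrophage or monocyte-like, although the labels name B and T cells alone. Library p19-/- 1 stood apart, with 891 barcodes removed for over 10% mitochondrial UMIs against 140 to 380 in the others, and with 301 of the 407 cells in unnamed B clusters, which entered no comparison. Il23a gave 0 UMIs in all 5 libraries, so the genotype could not be checked from its RNA. The 8 members together gave 8975 UMIs, or 111 to 157 per 1000000 UMIs per library in p19-/- and 108 and 136 in WT.

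Over all 5 mice every member stood lower in B-like than in T-like cells, and the members differed in which class held most and which held least. Levels are UMIs per 1000000 UMIs of the summed cells of a class in 1 mouse (CPM), given as mean ± SD with n = 5 mice. Because members differ in length and in how their 5' ends are captured, levels were compared across classes for 1 gene and not between genes. The mouse was the replicate, and the labels do not say whether cells were processed on separate days. With the mouse as a block, p-values weigh the difference within mice against a spread that edgeR estimates partly from all genes tested. They and the SEs are therefore no measure of 1 gene's own spread over the 5 mice. In summed cells, fewer cells making a transcript and less of it per cell cannot be told apart.

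**Figure D1:**
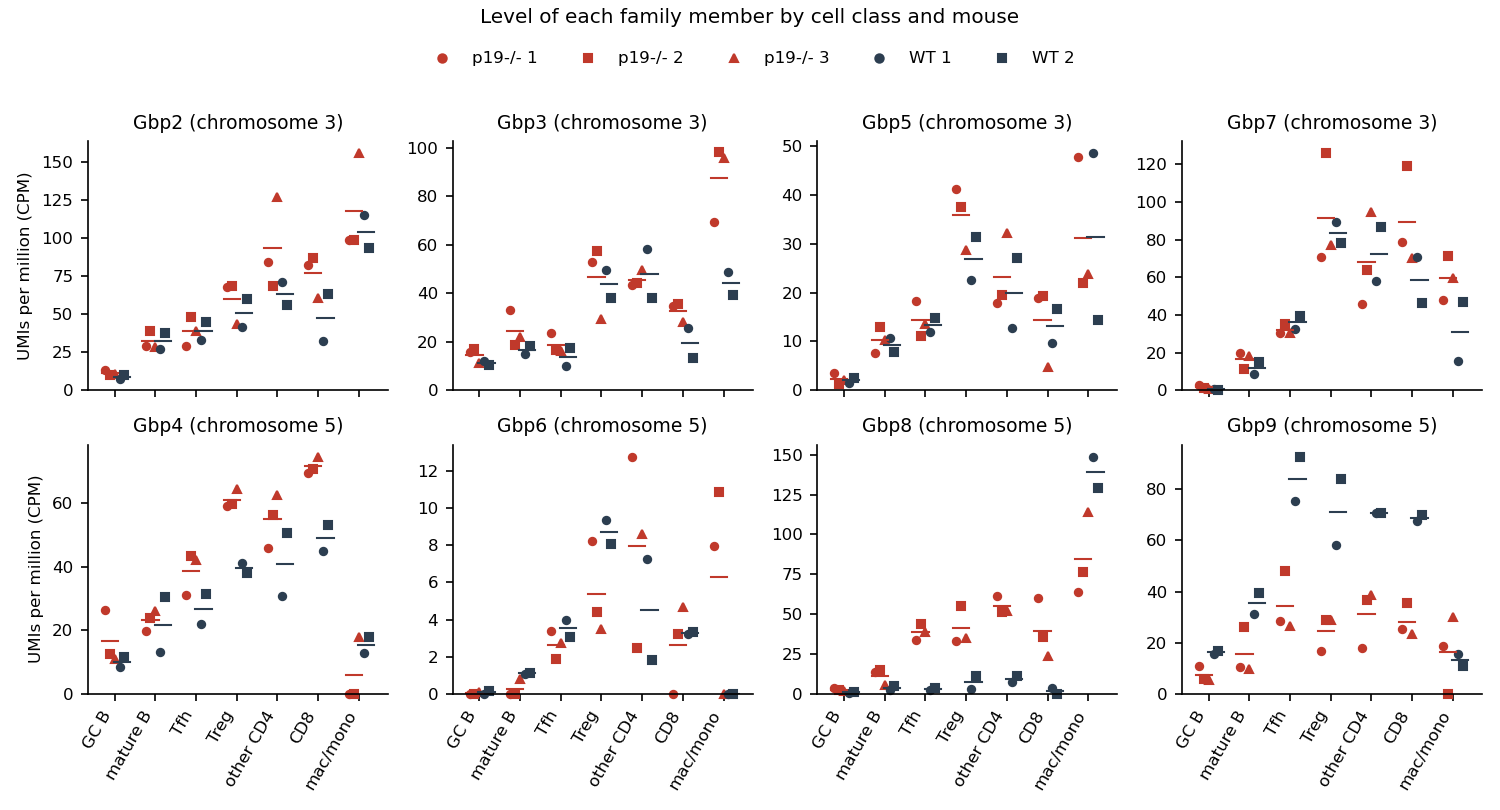
Level of each member (y axis, CPM, linear, a separate scale per gene) in 7 cell classes (x axis), with 1 point per mouse, p19-/- in red and WT in dark blue, and horizontal lines at the mean of each genotype. Gbp8 lay between 33.7 and 43.5 in Tfh-like cells of p19-/- mice against 1.98 and 3.59 in WT, while Gbp9 lay at 75.3 and 92.9 in WT against 26.4 to 48.1.

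T-like cells held more of every member than B-like cells, on the CPM scale. Gbp7, a member linked to oxidative and autophagic defence, showed the contrast most fully. It stood at 46.8, 70.1 and 59.8 CPM in T-like cells of p19-/- 1, 2 and 3 and at 57.5 and 58.4 in WT 1 and 2, against 5.34, 2.51, 2.62, 1.40 and 1.70 in B-like cells. No B-like value came near a T-like one, and the log2 fold change was 4.40 ± 0.21 (SE, edgeR's quasi-likelihood test with the mouse as a block, adjusted p = 2.81e-09). Gbp5, which has been tied to the NLRP3 inflammasome, stood at 20.1 ± 3.18 against 3.03 ± 0.683 CPM (log2 fold change 2.55 ± 0.14, adjusted p = 8.26e-09). Gbp2, which coats the vacuoles of Toxoplasma, stood at 51.9 ± 7.02 against 12.6 ± 2.53 CPM (1.86 ± 0.09, adjusted p = 4.06e-09). All 8 members passed the test in this direction, in 5 of 5 mice each, where 40.7% of the 10521 genes tested did. The members' median log2 fold change was 2.21, beside 0.04 over all genes. Gbp6 rested on 5 UMIs in all B-like cells, against 74 in T-like cells.

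This order is one of shares of a cell's RNA, since B-like cells yielded medians of 7005.5 to 12398 UMIs per cell over the mice against 2821.5 to 4548 in T-like cells. Counted as UMIs per 100 cells, without a test, Gbp7 still stood at 25.6 ± 6.83 in T-like against 3.32 ± 2.08 in B-like cells (n = 5). Gbp5, Gbp6, Gbp2 and Gbp8 were also higher per T-like cell in 5 of 5 mice. Gbp3 turned round on this scale, with 13 ± 2.59 against 17.4 ± 6.29 UMIs per 100 cells and a lower value per T-like cell in 4 of 5 mice. Gbp4 was at 19.4 ± 6.18 against 18.3 ± 9.14, closer than the spread between mice.

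Within B-like cells the family was lower in GC B-like than in mature non-GC B-like cells. Gbp7 stood at 2.60, 1.30 and 0.823 CPM in GC B-like cells of p19-/- 1, 2 and 3 and at 0.761 and 0.251 in WT, against 19.7, 11.1, 18.1, 8.65 and 14.7 in mature non-GC B-like cells. It was near its detection limit in GC B-like cells, with 33 UMIs in 3168 cells, and the groups did not overlap (log2 fold change -4.05 ± 0.38, adjusted p = 2.90e-06, edgeR). Gbp5 fell from 9.9 ± 2.21 to 2.18 ± 0.864 CPM (-2.39 ± 0.33, adjusted p = 8.56e-05). Gbp2 fell from 32.1 ± 5.56 to 10.2 ± 2.21 CPM (-1.85 ± 0.18, adjusted p = 4.92e-06). Gbp9 and Gbp4 were lower in 4 of 5 mice and Gbp3 in 5 of 5, by log2 fold changes of -1.25 ± 0.25, -1.01 ± 0.25 and -0.89 ± 0.19 (adjusted p = 0.0011, 0.00541 and 0.00211, edgeR). All 6 members tested passed as lower, where 27.8% of 9000 genes did, with a median of -1.55 beside -0.04 over all genes. Gbp6 and Gbp8 had too few UMIs for the test.

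GC B-like cells are large cells, at medians of 7415 to 13350 UMIs against 3692 to 10799.5 in mature non-GC B-like cells. Per 100 cells, Gbp7 was at 1.51 ± 1.32 against 11.5 ± 4.39 UMIs, Gbp5 at 2.88 ± 1.46 against 7.87 ± 3.48 and Gbp2 at 13.4 ± 4.55 against 26.2 ± 11.5, each lower in 5 of 5 mice. Gbp3, at 17.4 ± 6.2 against 17.1 ± 7.36, and Gbp4, at 18.6 ± 11.2 against 18.6 ± 8.45, were level on that scale. Gbp7, Gbp5 and Gbp2 thus kept their lower level on both scales, and Gbp3 and Gbp4 did so in CPM only.

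Among CD4 T-like cells, Treg-like cells held more of 5 members than Tfh-like cells did, and Gbp8 and Gbp9 did not pass the test. Gbp7 stood at 70.9, 126, 77.2, 89.1 and 78.4 CPM in Treg-like cells of p19-/- 1, 2 and 3 and WT 1 and 2, against 30.3, 35.1, 30.5, 32.4 and 39.5 in Tfh-like cells. The lowest Treg-like value was above the highest Tfh-like one (log2 fold change of Tfh-like over Treg-like -1.34 ± 0.13, adjusted p = 6.33e-07, edgeR). Gbp3 differed by -1.39 ± 0.20 (adjusted p = 5.56e-05) and Gbp5 by -1.16 ± 0.18 (adjusted p = 0.000127), again without overlap between the classes. Gbp4, at -0.63 ± 0.14 (adjusted p = 0.00287), and Gbp2, at -0.50 ± 0.14 (adjusted p = 0.0171), were smaller differences seen in 5 of 5 mice. Gbp4 and Gbp2 were not past the threshold in DESeq2 (adjusted p = 0.0699 and 0.177), nor was Gbp2 without p19-/- 1 (adjusted p = 0.0744). In all, 5 of the 7 members tested were lower in Tfh-like cells, where 13.7% of 8635 genes were, with a median of -0.63 beside 0.01.

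For Gbp8 the difference was -0.21 ± 0.21, with an approximate 95% interval of -0.63 to 0.21 (adjusted p = 0.541, edgeR). For Gbp9 it was 0.28 ± 0.13, with an approximate interval of 0.02 to 0.54 (adjusted p = 0.151, edgeR). Such intervals come from the SE by a normal approximation and are too narrow for so few mice. The interval of Gbp9 left out 0, yet its unadjusted p in edgeR was not under 0.05. Gbp9 went to -0.05 when cells called doublets were kept. Per 100 cells, Gbp8 stood at 10.4 ± 9.07 UMIs in Tfh-like against 14.1 ± 11.5 in Treg-like cells and was lower in Tfh-like cells in 5 of 5 mice, as were the 5 members called. Gbp9 stood at 21.8 ± 12.4 against 21.2 ± 14.9 on that scale and was lower in 2 of 5. The pair's levels in both classes were far apart between genotypes, as given further on. Gbp6, with 23 UMIs in Tfh-like and 32 in Treg-like cells, was below the filter for a test and stood at 2.99 ± 0.787 against 6.73 ± 2.59 CPM.

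**Figure D2:**
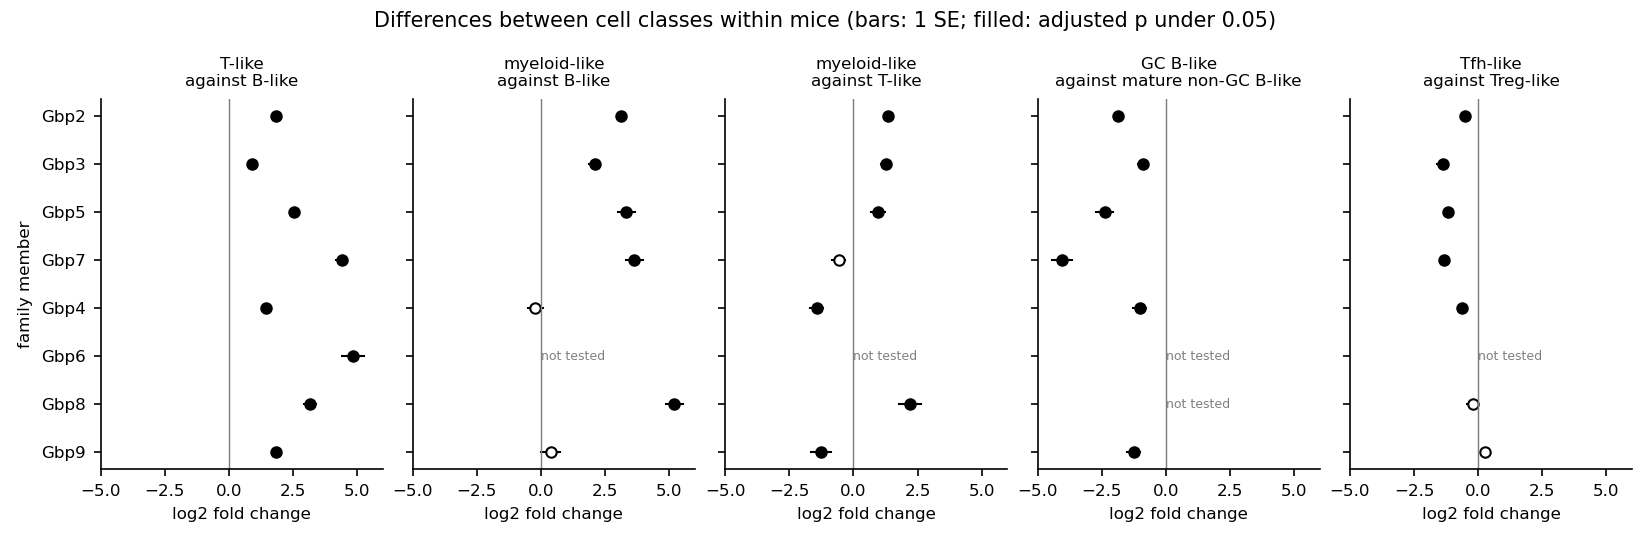
Log2 fold change (x axis) of each member (y axis) in 5 comparisons of cell classes within the same mice, with bars of 1 SE, filled points where edgeR's adjusted p is under 0.05 and open points where it is not. All 8 members lie to the right in T-like against B-like cells, whereas Gbp4 and Gbp9 lie to the left and Gbp8 to the right in myeloid-like against T-like cells. Points are on the CPM scale: per cell, Gbp3 in T-like against B-like cells, Gbp3 and Gbp4 in the comparison within B-like cells, and Gbp9 in myeloid-like against B-like cells, did not keep their side, and Gbp5 in myeloid-like against T-like cells was higher in 2 of 5 mice only.

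Myeloid-like cells divided the family. Gbp8 was the member with the steepest rise over B-like cells, at 58.4, 64.6 and 102 CPM in p19-/- 1, 2 and 3 and 106 and 96.2 in WT 1 and 2, against 5.09, 3.64, 2.21, 0.612 and 1.36 in B-like cells. All 5 mice had far more in myeloid-like cells (log2 fold change 5.20 ± 0.34, adjusted p = 4.44e-14, edgeR). The B-like level was lower in both WT mice than in every p19-/- mouse, so this fitted value joins unlike genotypes. Gbp2, Gbp3, Gbp5 and Gbp7 were higher as well, by log2 fold changes of 3.12, 2.09, 3.32 and 3.64. Gbp4 (-0.22 ± 0.31, adjusted p = 0.54) and Gbp9 (0.37 ± 0.38, adjusted p = 0.396) did not pass, with approximate 95% intervals of -0.83 to 0.38 and -0.37 to 1.11. In this comparison 5 of 7 members were higher, where 31.4% of 9757 genes were. Per 100 cells, Gbp8 stood at 26.5 ± 9.78 against 3.27 ± 2.44 UMIs, while Gbp4 stood at 4.27 ± 1.97 against 18.3 ± 9.14 and was lower in 5 of 5 mice. Gbp9 turned round on that scale, at 5.72 ± 4.73 against 14.7 ± 8.03, and was lower in 4 of 5.

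Against T-like cells, Gbp2, Gbp3, Gbp5 and Gbp8 were called higher in myeloid-like cells and Gbp4 and Gbp9 were called lower. Gbp9 was lower only in both WT mice and in p19-/- 2. Gbp2 stood at 118 ± 31.9 against 51.9 ± 7.02 CPM (log2 fold change 1.36 ± 0.16, adjusted p = 4.94e-07, edgeR) and Gbp3 at 69.1 ± 23.6 against 30.1 ± 3.51 (1.26 ± 0.20, adjusted p = 2.14e-05). Gbp8 was higher by 2.20 ± 0.43 in 5 of 5 mice (adjusted p = 0.000238, edgeR), but per 100 cells it stood at 26.5 ± 9.78 against 12.2 ± 9.71 UMIs and was higher in 3 of 5. The gap in CPM was far wider in WT mice, so the fitted value joins unlike genotypes. In WT 1 and 2 Gbp8 stood at 106 and 96.2 CPM in myeloid-like against 3.2 and 6.68 in T-like cells. In p19-/- 1, 2 and 3 it stood at 58.4, 64.6 and 102 against 40.4, 46.2 and 38. Gbp4 was at 15.6, 7.60, 15.3, 10.8 and 18.2 CPM in myeloid-like cells of p19-/- 1, 2 and 3 and WT 1 and 2, against 43.6, 52.8, 55.6, 31.4 and 37.6 in T-like cells (-1.44 ± 0.26, adjusted p = 8.42e-05). The Gbp4 groups did not overlap. So 4 members were called higher, where 26.6% of 9345 genes were, and 2 lower, where 25.0% were. Myeloid-like cells gave 54 to 239 cells per mouse and 26 Gbp4 and 35 Gbp9 UMIs in all, which limits the precision of these values.

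Calls of 3 members against T-like cells depended on the setting, and Gbp5 and Gbp9 followed their call in 3 of 5 mice each. Gbp5 (0.95 ± 0.28, adjusted p = 0.00796) was not past the threshold without p19-/- 1 (0.117), without WT 1 (0.0677) or in DESeq2 (0.0652), and per 100 cells it stood at 9.43 ± 4.46 against 8.81 ± 2.15 UMIs, higher in 2 of 5 mice. Gbp9 (-1.27 ± 0.39, adjusted p = 0.0105) was not past it without WT 1 (0.0942) or WT 2 (0.0875). In WT 1 and 2 Gbp9 stood at 16.2 and 7.8 CPM in myeloid-like against 68.6 and 85.4 in T-like cells. In p19-/- 1, 2 and 3 it stood at 29.2, 3.8 and 35.6 against 23.9, 40.4 and 28.8. The fitted value of Gbp9 thus joins unlike genotypes too. Gbp7 (-0.58 ± 0.24) sat at the threshold itself with an adjusted p of 0.0503 and was called under RLE scaling, without the filter, with doublets kept, without the mouse block, and without p19-/- 1 or p19-/- 3 (adjusted p = 0.00286 to 0.0469).

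The order of the classes differed from member to member. For Gbp2 the means ran from 112 ± 25.6 CPM in macrophage or monocyte-like cells through 81.4 ± 27.4 in other CD4 T-like, 65 ± 21.6 in CD8 T-like, 56.1 ± 13 in Treg-like, 38.7 ± 7.9 in Tfh-like and 32.1 ± 5.56 in mature non-GC B-like to 10.2 ± 2.21 in GC B-like cells. Each mean ± SD overlapped the next except at the last step, from mature non-GC B-like to GC B-like cells. Gbp4 was instead highest in the CD8 (62.6 ± 12.9), Treg-like (52.6 ± 12) and remaining CD4 T-like classes (49.3 ± 12), neighbours that overlapped, and lowest in macrophage or monocyte-like cells (9.74 ± 9.13). Gbp7 led in Treg-like (88.3 ± 22.1), CD8 T-like (77.1 ± 26.4) and other CD4 T-like cells (69.9 ± 20.4), again overlapping. Dendritic cell-like cells, with at least 20 cells in 2 mice only, held Gbp2 at 333 CPM in p19-/- 1 and 72 in WT 1. Plasma cell-like cells, summed where a mouse had at least 20, held Gbp4 at 78.1 CPM in p19-/- 3 against 14 and 31.4 in WT 1 and 2.

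Lists of interferon genes were followed beside the family. Immunity-related GTPases (IRGs), the smaller interferon-induced GTPases that work beside the guanylate-binding proteins, were higher in T-like than B-like cells for 10 of 11 tested, with none lower and a median log2 fold change of 3.10 beside 0.04 over all genes. Iigp1, an IRG that disrupts parasite vacuoles, differed by 4.84 ± 0.38 (adjusted p = 2.64e-07, edgeR). In GC B-like against mature non-GC B-like cells, 6 of 6 tested IRGs were lower, where 27.8% of 9000 genes were. Their median was -2.26, and they were led by Irgm1 at -2.86 ± 0.27 (adjusted p = 3.18e-06, edgeR). Type I interferon genes were higher in T-like cells for 18 of 21 tested (median 2.37), such as Oas1a, an RNA sensor, at 5.77 ± 0.23 (adjusted p = 6.63e-10), and lower in GC B-like cells for 10 of 13 (median -0.96). Over all 10521 genes tested in T-like against B-like cells, 40.7% were higher and 4018 genes were lower. Genes of interferon gamma signalling were mixed, with 11 higher and 5 lower of 16 in T-like cells. Among the latter was Ciita, the activator of MHC class II genes, with a log2 fold change of -5.99 ± 0.21 (adjusted p = 2.34e-10, edgeR). Against B-like cells, myeloid-like cells had 7 of 9 IRGs and 17 of 17 type I interferon genes higher, and 9 higher and 4 lower of 15 interferon gamma signalling genes. Over all 9757 genes tested there, 31.4% were higher and 3419 genes were lower.

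Ifng gave 0 UMIs in GC B-like and macrophage or monocyte-like cells of all 5 mice. Its highest mean was in other CD4 T-like cells, at 90.5 ± 41.6 CPM, a class whose leading genes included Ifng and Cxcr3. In Tfh-like against Treg-like cells Ifng was higher by 2.04 ± 0.27 (adjusted p = 2.69e-05), opposite in sign to the Gbp members called there, while Ifngr1, its receptor chain, had a log2 fold change of -1.89 ± 0.20 (adjusted p = 2.50e-06, edgeR). Of 7 IRGs tested in that comparison, 2 were lower, Irgm2 at -1.02 ± 0.30 and Igtp at -0.47 ± 0.10 (adjusted p = 0.0195 and 0.00223, edgeR), and none was higher. Over all 8635 genes tested there, 13.7% were lower. DESeq2 called none of the 7 IRGs, and 3 were at an unadjusted p under 0.05 in edgeR. The list of proteins that work with guanylate-binding proteins had entered the clustering, so no test of it between classes is given.

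The adjacent pair Gbp8 and Gbp9 stood apart from the other members between genotypes, which is how it was noticed, and the values are given for description. Of the UMIs of both genes, Gbp8 made up 54.7%, 48.6% and 48.2% in B-like and T-like cells of p19-/- 1, 2 and 3 (50.5 ± 3.64%) and 4.03% and 7.07% in WT 1 and 2 (5.55 ± 2.15%). These shares rest on 245, 247, 338, 447 and 552 UMIs, with exact (Clopper-Pearson) 95% intervals of 42.2 to 61% in p19-/- and 2.4 to 9.53% in WT, which cover counting error only. The lowest p19-/- mouse was far above the highest WT mouse. The male p19-/- 3 sat with the 2 females of its genotype.

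**Figure D3:**
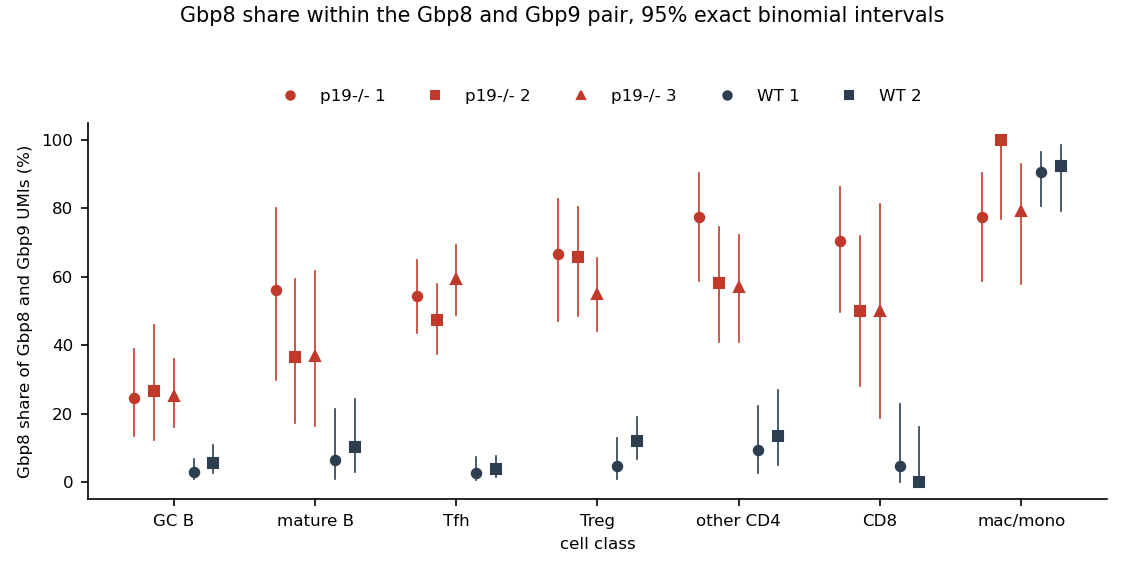
Share of Gbp8 in the summed UMIs of Gbp8 and Gbp9 (y axis, percent) in 7 cell classes (x axis), with 1 point per mouse and exact binomial 95% intervals, p19-/- in red and WT in dark blue. In the 6 lymphoid classes every p19-/- mouse lies above both WT mice, from 24.5% in GC B-like cells to 77.4% in other CD4 T-like cells, whereas in macrophage or monocyte-like cells all 5 mice lie at 77.4% or more.

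The pattern was present in each lymphoid class. In Tfh-like cells the Gbp8 share was 54.3%, 47.5% and 59.4% against 2.56% and 3.72%. In Treg-like cells it was 66.7%, 65.8% and 54.9% against 4.62% and 11.9%. In GC B-like cells it reached only 24.5%, 26.7% and 25%, close to each other, against 2.96% and 5.67%. Counted by cell, in Tfh-like cells of p19-/- 1, 41 cells had UMIs of Gbp8 alone, 32 of Gbp9 alone and 7 of both, out of 372. In WT 2, 4 had Gbp8 alone, 134 Gbp9 alone and 2 both, out of 442. In Treg-like cells of p19-/- 2 the numbers were 17, 6 and 6, out of 80. At these depths a cell with a UMI of 1 gene may still hold the other. Mature non-GC B-like cells held 56.2%, 36.4% and 36.8% against 6.45% and 10.3%, on 16 to 39 UMIs per mouse. Other CD4 T-like cells held 77.4%, 58.3% and 57.1% against 9.3% and 13.3%. CD8 T-like cells held 70.4%, 50% and 50% against 4.55% and 0%, where 0 of 21 UMIs allowed a share of up to 16.1%.

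The change in share came from both genes. Gbp8 stood at 33.7, 43.5 and 38.6 CPM in Tfh-like cells of p19-/- 1, 2 and 3 and at 1.98 and 3.59 in WT 1 and 2, on 154 and 10 UMIs in all. The groups did not overlap, and the fitted log2 fold change was 3.71 ± 0.32. Gbp9 stood at 28.3, 48.1 and 26.4 CPM against 75.3 and 92.9 there (-1.33 ± 0.20), so both WT mice were above every p19-/- mouse. In Treg-like cells Gbp8 stood at 33, 55.2 and 35.1 against 2.81 and 11.3 CPM (2.41 ± 0.42) and Gbp9 at 16.5, 28.7 and 28.8 against 58.2 and 84 (-1.47 ± 0.25). WT 2 had more of both than WT 1. The fitted value for Gbp8 in Treg-like cells was 1.80 without WT 1 and 3.74 without WT 2.

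B-like cells showed the same directions at lower levels. In GC B-like cells Gbp8 was at 3.47, 2.08 and 1.83 CPM against 0.476 and 1.01 (log2 fold change 1.65 ± 0.51), on 40 and 13 UMIs. Gbp9 was at 10.7, 5.71 and 5.49 against 15.6 and 16.7 CPM (-1.25 ± 0.26). Neither gene overlapped between genotypes there. In mature non-GC B-like cells Gbp8 was at 13.6, 14.8 and 5.52 against 2.16 and 4.53 CPM (1.56 ± 0.69) and Gbp9 at 10.6, 25.9 and 9.46 against 31.3 and 39.6 (-1.38 ± 0.38). In CD8 T-like cells Gbp8 was at 60, 35.4 and 23.4 CPM against 3.21 and 0, a WT total of 1 UMI, and the ratio of pooled counts was 25.5 with a counting interval of 4.28 to 1034. Gbp9 was at 25.3, 35.4 and 23.4 against 67.5 and 69.8 CPM (-1.21 ± 0.35).

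Macrophage or monocyte-like cells did not share the pattern. Gbp8 stood there at 63.9, 76.5 and 114 CPM in p19-/- 1, 2 and 3 and at 149 and 129 in WT 1 and 2, lower in each p19-/- mouse (log2 fold change -0.72 ± 0.28). Gbp8 made up 77.4%, 100% and 79.2% of the pair's UMIs in p19-/- and 90.6% and 92.3% in WT. WT mice therefore carried Gbp8 mainly in this class, 139 ± 13.9 CPM beside 9.06 ± 2.54 in the next highest, other CD4 T-like cells (n = 2), and these did not overlap. Gbp9 was at 18.6, 0, 29.9, 15.4 and 10.8 CPM, with 21 UMIs in all, and was not fitted. T lineage markers summed to 74.6 to 449 CPM in macrophage or monocyte-like cells of p19-/- mice and to 7.17 to 74.4 in WT; their part in the result was not tested.

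The myeloid-like clusters differed in the pair. The cluster whose leading genes included Itgad, Spic and Vcam1, genes of red pulp macrophages, held Gbp8 at 277, 133 and 216 CPM in p19-/- and 306 and 291 in WT. The cluster led by Marco and the C1q genes, of low depth (median 766 UMIs), held it at 39.9, 146 and 113 against 138 and 423 CPM. In the cluster led by Ace, Ifitm3 and Ear2, genes of non-classical monocytes, Gbp8 gave 1, 0 and 6 UMIs in p19-/- and 0 and 0 in 58 and 21 WT cells. Dendritic cell-like cells held it at 43.5, 37.4 and 34.2 against 6 and 9.44 CPM, on 10 and 2 UMIs, the direction seen in lymphocytes. The high WT level thus lay in the macrophage clusters. Of the macrophage or monocyte-like cells, the Spic cluster made up 64 of 278 in p19-/- and 124 of 290 in WT, so the value for the class also depends on this mix.

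**Figure D4:**
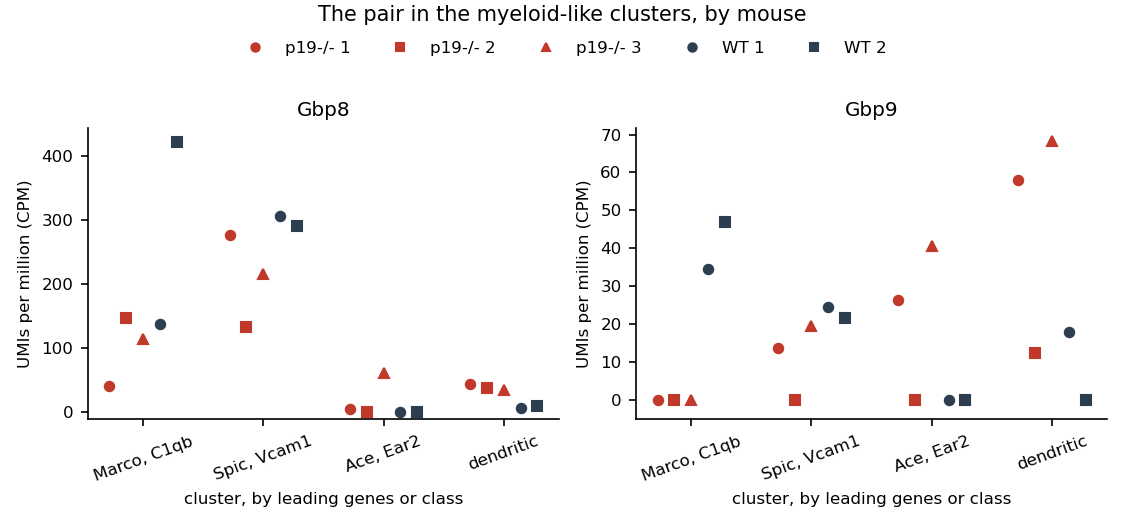
Level of Gbp8 (left) and Gbp9 (right) in CPM (y axis) in the 3 macrophage or monocyte-like clusters, labelled by leading genes, and in dendritic cell-like cells (x axis), with 1 point per mouse. Gbp8 is above 130 in every mouse in the Spic and Vcam1 cluster and at 0 in both WT mice in the Ace and Ear2 cluster.

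Macrophage RNA in the lymphoid classes was measured beside the pair. The 11 macrophage or monocyte markers summed to 86.9 to 100 CPM in Tfh-like cells of p19-/- mice and to 75.9 to 121 in WT, with 8 to 10 of 11 detected and Itgam at 0 in every p19-/- mouse. In Treg-like cells they summed to 51.1 to 66.3 against 42.8 to 45 CPM, with Itgam and Ly6c2 at 0 in all 5 mice, and in GC B-like cells to 11.4 to 14.5 against 14.9 to 21.5. In macrophage or monocyte-like cells themselves the sum was 18831 to 22262 CPM. The part of such RNA in the lymphoid values of Gbp8 was not tested. Erythroid markers summed to 5.55 to 19.5 CPM in Tfh-like cells of p19-/- mice and to 58.1 to 103 in WT; their part in the result was not tested. In CD8 T-like cells the sum was 276 to 849 against 362 to 556, with C1qa, Lyz2 and Itgam at 0 in all 5 mice; Ly6c2, on the list, is also made by CD8 T cells.

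In Tfh-like and Treg-like cells the fitted genotype values of the other members lay closer to 0 than those of the pair, and in other classes some did not. In Tfh-like cells Gbp2 (-0.04 ± 0.21), Gbp5 (0.12 ± 0.30) and Gbp7 (-0.18 ± 0.18) lay near 0 on the log2 scale. Gbp4, the neighbour of Gbp9, was at 31, 43.5 and 42 against 21.8 and 31.3 CPM in Tfh-like cells, where the groups overlapped (0.52 ± 0.21). In Treg-like cells it was at 59.3, 59.7 and 64.5 against 41.3 and 38, without overlap (0.66 ± 0.20), and in CD8 T-like cells at 69.5, 70.8 and 74.8 against 45 and 53.2 (0.59 ± 0.30). Gbp3 in macrophage or monocyte-like cells was at 69.3, 98.4 and 95.7 against 48.7 and 39.4 CPM (0.99 ± 0.34), and Gbp7 there at 47.9, 71.1 and 59.8 against 15.4 and 46.6 (1.04 ± 0.47), both further from 0 than Gbp8 there. In GC B-like cells Gbp7 was at 2.60, 1.30 and 0.823 against 0.761 and 0.251 CPM, on 33 UMIs and without overlap (1.31 ± 0.70), further from 0 than Gbp9 there. Gbp6 was not fitted in any class. None of these values reached the fold of Gbp8 in Tfh-like or Treg-like cells.

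**Figure D5:**
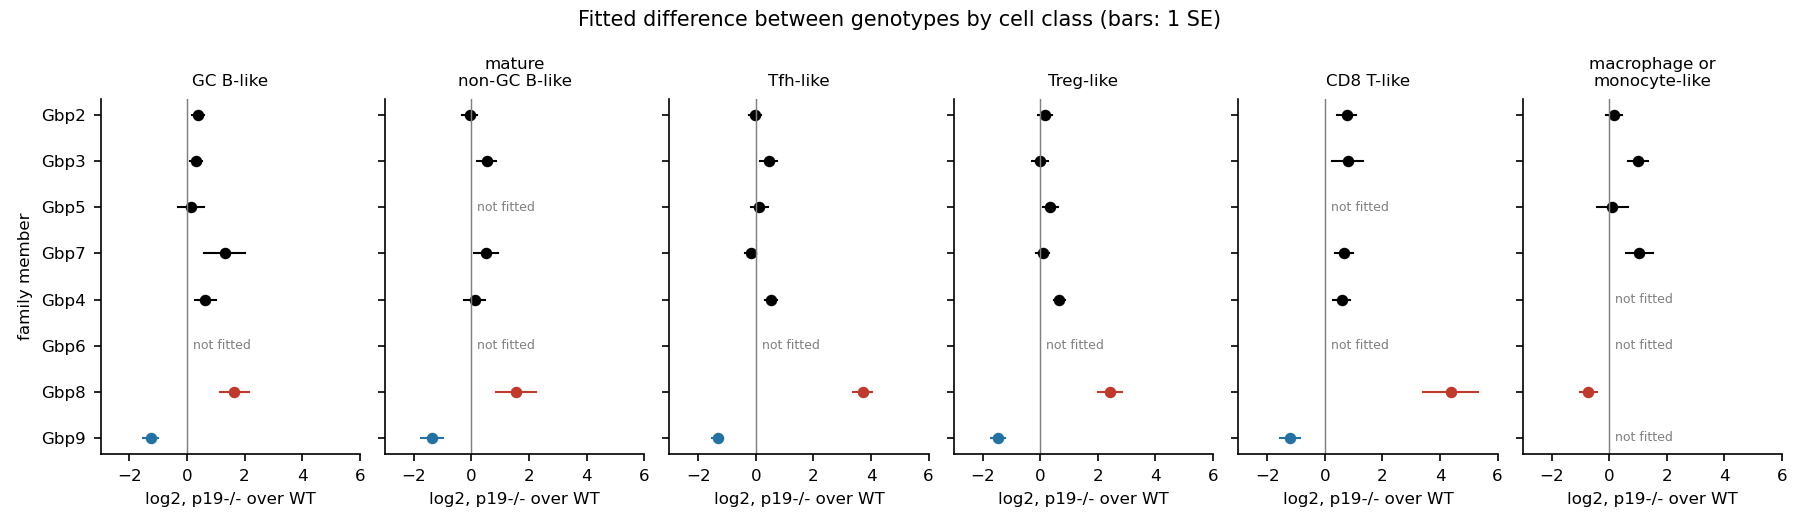
Fitted log2 fold change of p19-/- over WT (x axis) for each member (y axis) in 6 cell classes, with bars of 1 SE, Gbp8 in red and Gbp9 in blue, given for description. Gbp8 lies to the right in the 5 lymphoid classes, from 1.56 to 4.37, and to the left in macrophage or monocyte-like cells at -0.72, and the CD8 T-like value rests on 1 WT UMI.

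The fit across all genes gives the background of these values, and nothing is read from the members' calls, since the contrast had chosen them. In Tfh-like cells 62 of 9002 genes (0.689%) had an adjusted p under 0.05 with edgeR's quasi-likelihood test, and in Treg-like cells 42 of 8622 (0.487%). Among the 7 members fitted in each, 2 were called, Gbp8 and Gbp9. The pair had been picked for this difference, so these calls add no support for it. In GC B-like cells 2 of 10520 genes (0.0190%) and in mature non-GC B-like cells 1 of 7180 (0.0139%) were called, and none of the 7 and 6 members tested. In CD8 T-like and macrophage or monocyte-like cells 0% of 4042 and 0% of 4897 genes were called (242 and 317 at an unadjusted p under 0.05, 3 and 1 by DESeq2), and so none of 6 and 5 members. At an unadjusted p under 0.05 there were 859 genes in GC B-like and 344 in mature non-GC B-like cells. Members at an unadjusted p under 0.05 numbered 2 in GC B-like, 2 in mature non-GC B-like, 4 in CD8 T-like and 3 in macrophage or monocyte-like cells, and DESeq2 called 1, 0, 0 and 0. The 2 calls in Treg-like cells fell to 0 without p19-/- 1 or without p19-/- 3. They also fell to 0 with sex as a covariate. Since p19-/- 3 was the only male, that setting is no separate check from leaving this mouse out.

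Genes around the pair were taken from the annotation within 1 Mb of each cluster. On chromosome 5, Spp1 (osteopontin, a secreted phosphoprotein; chr5:104435111-104441053), 571 kb from Gbp8, was higher in p19-/- mice in Tfh-like cells, the direction of Gbp8 and opposite to Gbp9. It stood at 622, 439 and 690 CPM in p19-/- mice and at 0 in WT 1 and WT 2. Against a floor of 3 counts over the WT group, that was at least 690-fold higher. In Treg-like cells it was at 185, 2.21 and 118 against 0 and 0 CPM, and in GC B-like cells it gave 3 UMIs in p19-/- and 1 in WT. The other chromosome 5 neighbours measured in Tfh-like cells were close to 0 on the log2 scale, at 0.27 ± 0.18 for Lrrc8d, -0.21 ± 0.16 for Nudt9, 0.18 ± 0.27 for Hsd17b11, -0.05 ± 0.21 for Lrrc8c and -0.04 ± 0.17 for Zfp326. In macrophage or monocyte-like cells Abcg3, the nearest gene outside the cluster at 29.7 kb from Gbp8, was at 152, 131 and 126 against 251 and 179 CPM, without overlap (-0.59 ± 0.26), the direction of Gbp8 there. In GC B-like cells Lrrc8c was at 20.5, 23.9 and 20.3 against 16.6 and 13.7 CPM, also without overlap (0.47 ± 0.15). On chromosome 3, Gbp2b in Tfh-like cells was at 51.2, 48.1 and 34.6 against 27.7 and 28.7 CPM (0.66 ± 0.20). Any part of the chromosome 5 neighbourhood in the values of Gbp8 and Gbp9 was not tested.

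Between genotypes, Spp1 aside, the listed genes around and upstream of the family gave few calls. Over the 6 classes, none of 37 tests of IRGs, 76 of interferon gamma signalling genes and 81 of type I interferon genes was past the threshold in edgeR (10, 17 and 7 at an unadjusted p under 0.05, and 0, 1 and 0 in DESeq2). In Tfh-like cells the median log2 fold changes were -0.03, 0.10 and -0.20, beside 0.00 over all genes. The IRG median was higher in GC B-like cells, at 0.95 with 5 of 7 above 0, and in Treg-like cells, at 0.56 with 7 of 7 above 0. In Tfh-like cells Irf8 was at 27.6, 14.8 and 16.9 against 10.6 and 7.7 CPM (1.17 ± 0.34). Irf8 is also strong in B cells, whose markers summed to 23.1 to 146 CPM there in p19-/- and 31.3 to 64.1 in WT; their part was not tested. Ifngr1 stood at 22.9, 17.6 and 19 against 33.7 and 34.4 (-0.75 ± 0.20).

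The study's title concerns switching to IgG2b, so GC B-like cells with an IgG2b or IgG2c heavy chain were compared with IgM cells within 4 mice, leaving out p19-/- 1 with its 15 IgM cells. Gbp2 stood at 9.47 ± 2.58 against 11.3 ± 0.976 CPM (log2 fold change -0.19 ± 0.23), Gbp3 at 13.3 ± 1.82 against 12.7 ± 3.03 (0.15 ± 0.22), Gbp4 at 10.3 ± 4.8 against 11.2 ± 4.04 (-0.20 ± 0.27) and Gbp9 at 10 ± 5.75 against 12.4 ± 8.21 (-0.18 ± 0.28, n = 4). None of these 4 members passed the test in edgeR (adjusted p = 0.967 to 0.98), 0 did at an unadjusted p under 0.05 or in DESeq2, and 0.347% of 8366 genes did. The approximate 95% intervals of the 4 differences lay between -0.73 and 0.58 and are too narrow for 4 mice. That range is no limit of detection, and differences within it or somewhat beyond it are not excluded. Gbp5, Gbp6, Gbp7 and Gbp8 gave 37, 2, 14 and 15 UMIs and were below the filter.

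Likeness across classes was described by Pearson's r of log2(CPM + 1) over 40 class-by-mouse sums, which share mice, differ in depth and pool both genotypes. Gbp8 and Gbp9 had r = -0.133 with each other. The opposite genotype differences on which the pair was chosen enter this r and every r of either gene below. None of these values describes the classes alone. Gbp8 was closest among members to Gbp3 (0.733) and Gbp2 (0.727), and among 8289 genes to Klhl9 (0.786), Plod1 (0.775) and Pxn (0.767). Gbp9 was closest among members to Gbp4 (0.552), and among all genes to Ino80b (0.78), Tmem192 (0.76) and Nmi (0.756), the last an interferon-induced protein. The highest r within the family was that of Gbp2 and Gbp5 (0.851), both on chromosome 3.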

How the data were processed

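Single-cell RNA and B cell receptor libraries of 5 spleens (3 BXD2-p19-/-, 2 BXD2-WT, grouped and numbered by the labels) were used. The authors deposited UMI count matrices, whole numbers per gene and barcode, and receptor contig tables with read and UMI counts, made with Cell Ranger 3.0.2 and STAR on mm10 per the submitters' processing notes. How reads shared by paralogues were counted is not given in the sources used here.

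Barcodes with at least 200 genes and at most 10% mitochondrial UMIs were kept. Doublets were removed by score at the share expected for each library's number of barcodes (0.88 to 2.58%, 186 in all), since Scrublet's own limit marked 28 (0.299%). Counts scaled to 10000 per cell were clustered with scanpy 1.11.5 (2000 variable genes, 20 components, 20 neighbours, Leiden resolution 1), leaving out 851 genes, among them the Gbp, IRG and interferon lists. Clusters were named from marker lists with a score of at least 0.9. The score limit, a limit on clusters with a median over 5 times their own sample's UMIs and the doublet rule were set after the data were seen. The heavy chain contig of a GC B-like cell gave its isotype.

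Raw counts were summed per mouse and class (at least 20 cells) and tested with edgeR 4.0.16 (R 4.3.3; quasi-likelihood test, TMM scaling, filterByExpr, Benjamini-Hochberg adjustment over all genes tested, threshold 0.05). Class and isotype contrasts had the mouse as a block, and genotype contrasts had no covariate. DESeq2 1.42.0, RLE scaling, no filter, doublets kept, a 5% mitochondrial limit, leaving out each mouse, a replicate block, sex and no mouse block were tried. Depth was 7712457 to 18093053 UMIs per library, and binomial intervals (95%, exact) cover counting error only. Intervals of log2 fold changes were taken from the SE by a normal approximation, which makes them too narrow for so few mice.

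The members and lists were chosen with earlier results of these data known. Named were all 8 members, and from each list those with the largest fold changes past the threshold (class contrasts) or with a mean of at least 10 CPM (genotype). The 3 genes most like Gbp8 and Gbp9 and genes within 1 Mb of either cluster were also named. The Ifng levels were added after their values were seen. A few genes of these lists and clusters are not reported here.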

Additional observations from a re-analysis of the deposited data

Results flagged for a closer look

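Gbp4 in GC B-like cells of p19-/- 1 stood at 26.3 CPM, on 91 UMIs, while the other 4 mice lay between 8.47 and 12.5. The gap to the nearest mouse was 0.776 of the whole range, past Dixon's limit for 5 samples. Of 36 groups of values checked this way, 1 was past its limit, and chance passes about 5% of such groups. This library also had the most barcodes over the mitochondrial limit (891); their part in the value was not tested.

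Gbp8 differed between the genotypes in opposite directions in macrophage or monocyte-like cells, with a log2 fold change of -0.72, and in GC B-like, mature non-GC B-like, Tfh-like, Treg-like and CD8 T-like cells, where every p19-/- mouse was above both WT mice. The difference between the classes was not tested.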

How the results depend on the processing

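The lymphoid genotype differences of Gbp8 and Gbp9 kept their sign in all 56 and 60 alternatives, whereas counts of called members moved. The pair was chosen on this difference and the alternatives reuse the same libraries, so neither signs nor calls add support. Gbp8 had a fitted value in 10 alternatives each in mature non-GC B-like and CD8 T-like cells. It had 12 each in GC B-like, Tfh-like and Treg-like cells. In GC B-like cells 1 member was called with DESeq2, without the filter on low counts or without p19-/- 1 (0 to 1 over leaving out each mouse, 0 as reported), in mature non-GC B-like cells 1 without the filter, and in CD8 T-like cells 1 without the filter, with the replicate block or with sex. In Treg-like cells 1 was called under the 5% mitochondrial limit, 0 with sex, and 0 to 2 over leaving out each mouse (0 without p19-/- 1 or p19-/- 3, 1 without WT 1 or WT 2, 2 as reported). DESeq2 called 3 members and none of 7 IRGs in Tfh-like against Treg-like cells. Over all barcodes of a library, with no split by class, the Gbp8 share was 51% in p19-/- and 13.2% in WT, against 78.4% and 89.7% in myeloid-like cells and 5.55% in lymphoid cells of WT mice. Per cell in place of CPM, a scale added after the data were seen, the log2 ratio was -0.42 for Gbp3 in T-like against B-like cells and 0.02 for Gbp3 and 0.00 for Gbp4 in GC B-like against mature non-GC B-like cells. In myeloid-like cells it was -1.36 for Gbp9 against B-like cells (0.37 in CPM, not called) and 0.10 for Gbp5 against T-like cells (0.95 in CPM). The causes were not tested.

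Of the members' values under the alternatives named in the processing, 409 of 446 for genotype moved by no more than 1 SE. For cell class 369 of 385 and for isotype 42 of 44 kept their call or, where not called, their direction to within 1 SE, and no called value reversed. Among all genes, DESeq2 called 47, 8, 41, 27, 3 and 1 genes between genotypes in GC B-like, mature non-GC B-like, Tfh-like, Treg-like, CD8 T-like and macrophage or monocyte-like cells, and no filter 224, 83, 217, 216, 46 and 80 (2, 1, 62, 42, 0 and 0 as reported). With sex they were 8, 14, 56, 7, 16 and 9, where p19-/- 3, the only male, no longer informs the genotype difference. Leaving out each mouse gave 1 to 9, 1 to 11, 41 to 55, 8 to 70, 0 to 10 and 0 to 19. Tfh-like cells gave 40 with doublets kept, Treg-like cells 16 under the 5% limit, and mature non-GC B-like cells 0 under both. The isotype contrast (29) gave 247 without the filter, 11 without the mouse block and 13 to 46 over leaving out each mouse, and DESeq2 called 1093 genes in Tfh-like against Treg-like cells (2175 as reported).

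With the replicate block the genotype counts were 124, 113, 46, 191, 64 and 22. Mice of the same number deviated together weakly, with r from -0.00721 to 0.0866 over 2 pairs in each of 6 classes. The 2 WT mice deviate from their own mean by opposite amounts, so the 2 pairs are not independent and a pairing is not excluded. The numbers were not taken to pair the mice. Depth limits Gbp6 everywhere, Gbp8 in WT lymphoid cells and Gbp9 in myeloid-like cells.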
